A study of Rattus norvegicus with 36 samples.

Results

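The genes described here are 137 protein-coding genes. Their RNA was lowered in TGFb-treated rat lung slices, and Pirf and Sora each raised it by less than 0.5 log2 units, if at all. They were taken from 14984 genes in the authors' table of expressed protein-coding genes, whose values are log2 CPM (counts scaled to the library total). A gene was chosen by measured values of these same libraries: a TGFb-alone mean at least 1 log2 unit below the untreated mean at the labelled time 72, a rise of less than 0.5 with Pirf and of less than 0.5 with Sora over TGFb alone, and a mean of at least 1 in its highest group. Of 13053 genes at that minimum level, 588 (4.5%) met the TGFb criterion. Among these 588, Pirf and Sora both raised 255 by 0.5 or more. By that limit Pirf alone raised 92, Sora alone raised 104, and neither raised the 137.

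Precision-cut lung slices are thin sections of living lung kept in culture, and they hold the lung's epithelial, vascular, connective tissue and immune cells side by side. RNA was sequenced from 36 libraries, 6 in each of 6 groups. The groups were slices with TGFb and Pirf, TGFb and Nint, TGFb and Sora, TGFb alone, no treatment at time 72, and no treatment at time 0. The drug names are taken to stand for pirfenidone, nintedanib and sorafenib, and the labels state no strain, age, dose or unit of time. No slices carried a drug without TGFb, so every drug value is a value on top of TGFb. Whether the 6 replicates of a group are different animals is not stated in the labels. The p-values therefore describe the spread among these libraries, part or all of which may be technical.

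TGFb is a growth factor that binds a pair of receptor kinases on the cell surface, and these activate SMAD proteins that enter the nucleus and change transcription. In lung it is known for raising matrix and contractile genes in fibroblasts, and it also lowers genes in many cell types. Pirfenidone is an anti-fibrotic drug whose direct target is not settled, nintedanib inhibits receptor kinases for vascular, fibroblast and platelet-derived growth factors, and sorafenib inhibits RAF kinases and several of the same receptors. The files give Ensembl gene IDs without names, and 0 of the 14984 IDs could be paired with a symbol here, so members are given by ID and no role is assigned to them. For the same reason the lung cell types were not checked against their markers. In bulk tissue, fewer cells of a type and less RNA per cell cannot be told apart.

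Depth per library, as total expected counts, ranged from 18971560 to 32933012 at time 72 and from 15886958 to 23255558 at time 0. All 137 members passed the low-count filter of the count test, and 107 had at least 10 counts in all 36 libraries. The members span a wide range of levels, with a highest group mean of 1 to 3 log2 CPM in 35, of 3 to 6 in 57 and of 6 or more in 45.

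Averaged over the 137 genes, the level was 2.5 ± 0.17 log2 CPM with Pirf, 2.95 ± 0.19 with Nint, 3.01 ± 0.29 with Sora, 2.89 ± 0.15 with TGFb alone, 4.28 ± 0.08 in untreated slices at 72 and 4.38 ± 0.3 in untreated slices at 0 (SD over libraries, n = 6 each). The TGFb-alone libraries ranged from 2.66 to 3.06, and all 6 lay below the untreated libraries at 72, which ranged from 4.19 to 4.4. The Pirf libraries ranged from 2.3 to 2.81, with 5 of the 6 below the lowest TGFb-alone library and replicate 3 above it. The Nint libraries, at 2.78 to 3.28, and the Sora libraries, at 2.66 to 3.41, overlapped those with TGFb alone. The TGFb, Pirf and Sora differences follow from how the genes were chosen and carry no test.

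**Figure D1:**
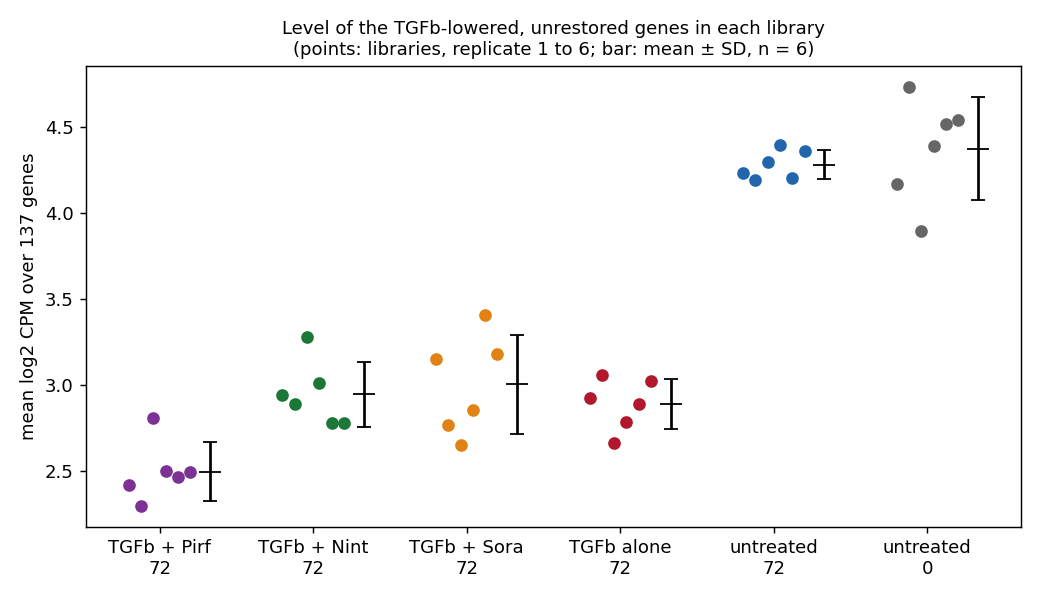
Mean log2 CPM over the 137 genes (y axis) in each library, by group (x axis); points are libraries in order of replicate number and bars are the mean ± SD of 6. All treated libraries lie at 3.41 or below, and all untreated libraries lie at 3.9 or above.

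The size of the TGFb difference was modest for most members. Its median was -1.27 on the log2 scale, its quartiles were -1.56 and -1.11, and its lowest value was -2.9. Of the members, 10 lay at or below -2 and another 26 at or below -1.5. For 96 members all 6 TGFb-alone libraries were lower than all 6 untreated libraries at 72, as was the case for 7.65% of all coding genes at the minimum level; the TGFb difference was used to choose the members, so nothing is read from that count. The 3 members closest to the TGFb threshold had differences of -1.002, -1.003 and -1.013, and the 3 genes that just missed it had -0.996, -0.988 and -0.986.

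Which genes belong to the set depended on single libraries. Leaving out each of the 24 libraries of the untreated-72, TGFb-alone, Pirf and Sora groups in turn, 71 members met the criteria every time and 66 dropped out at least once. The loss was largest for the TGFb-alone libraries, where leaving out 1 library removed between 14 (replicate 5) and 25 members (replicate 3). ENSRNOG00000049394, named after its values were seen, shows how 1 library can make a member. It had 0 CPM in replicate 3 with TGFb alone and 10.5 to 21.2 CPM in the other 5, against 2.48 to 18.7 CPM in untreated slices at 72. It was also listed at 0 in 1 Pirf, 1 Nint and 1 Sora library, and its mean was 11.5 CPM with TGFb alone and 10.6 CPM in untreated slices, although its log2 difference was -1.06. It was the only member whose mean CPM was not lower with TGFb than without, and in 126 of the 137 the ratio of mean CPM was also at or below -1 on the log2 scale.

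Among members with a highest group mean of at least 3 log2 CPM, ENSRNOG00000001963 had the lowest TGFb difference. It stood at 28.8 to 78.5 CPM with TGFb alone (median 52.9) and at 193 to 498 CPM in untreated slices at 72 (median 310.5), a log2 difference of -2.7. The groups did not overlap. With the drugs it ranged from 8.11 to 72.9 CPM with Pirf (median 23.7), from 30.1 to 126.9 CPM with Nint (median 43) and from 20 to 215.6 CPM with Sora (median 43.5). The single highest library in each drug group, replicate 3 with Pirf, replicate 3 with Nint and replicate 5 with Sora, stood well above the other 5. At time 0 it ranged from 99.2 to 581.6 CPM.

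ENSRNOG00000055156, which reached 3 log2 CPM only at time 0, came next, with nearly the same log2 difference, but its libraries were far more uneven. With TGFb alone 5 libraries lay between 0 and 0.693 CPM and replicate 3 at 8.08 CPM, whereas untreated slices at 72 lay between 0.838 and 5.95 CPM, so the groups overlapped. Its Pirf, Nint and Sora libraries each spanned 0 to more than 4 CPM. A within-group SD of 1 log2 unit or less in all 6 groups was found in 98 members. The SD was over 1 in 11 members with Pirf, 12 with Nint, 20 with Sora and 12 with TGFb alone. In untreated slices it was over 1 in 5 members at 72 and in 23 at time 0. No share of all coding genes stands beside these counts.

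The median within-group SD over members was 0.39 log2 units with Pirf, 0.34 with Nint, 0.51 with Sora, 0.44 with TGFb alone, 0.33 in untreated slices at 72 and 0.65 at time 0. The corresponding medians over all coding genes at the minimum level lay between 0.11 and 0.21. Members were thus more variable between libraries than the typical gene in each group; this is a description and was not tested.

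The Pirf and Sora differences of the members are given as a description, since both were used to choose them. The Pirf difference from TGFb alone had a median of -0.25 and reached -3.07, and 48 members lay below -0.5 with Pirf, of which 21 lay at or below -1. The Sora difference had a median of 0.23, and 8 members lay below -0.5, of which 3 lay at or below -1. Of all coding genes at the minimum level, 13.8% lay below -0.5 and 5.05% at or below -1 with Pirf, and 5.29% and 1.15% did so with Sora. In 13 members all 6 Pirf libraries were lower than all 6 with TGFb alone (17.6% of all coding genes at the minimum level) and in 0 they were all higher (15.4%). With Sora, 1 member was lower in this sense (2.94%) and 1 was higher (2.21%). These differences were used to choose the members, with rises of 0.5 or more excluded, and nothing is read from the medians or the counts.

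The Pirf mean was below the Sora mean for 109 members and above it for 28, with a median Pirf minus Sora difference of -0.43. In all, 6 members lay below -0.5 with both drugs. No share of all coding genes stands beside these counts, and the criteria cut both differences, so nothing is read from them. Just inside the limit of 0.5 stood members with Pirf differences of 0.498, 0.495 and 0.495 and Sora differences of 0.497, 0.491 and 0.489, and just outside it stood genes with Pirf differences of 0.5, 0.502 and 0.511 and Sora differences of 0.511, 0.524 and 0.531. The Pirf difference was below 0 in 88 members and the Sora difference in 32, where 48.4% and 47.2% of all coding genes at the minimum level lay below 0. Both values chose the members and are given as a description.

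**Figure D2:**
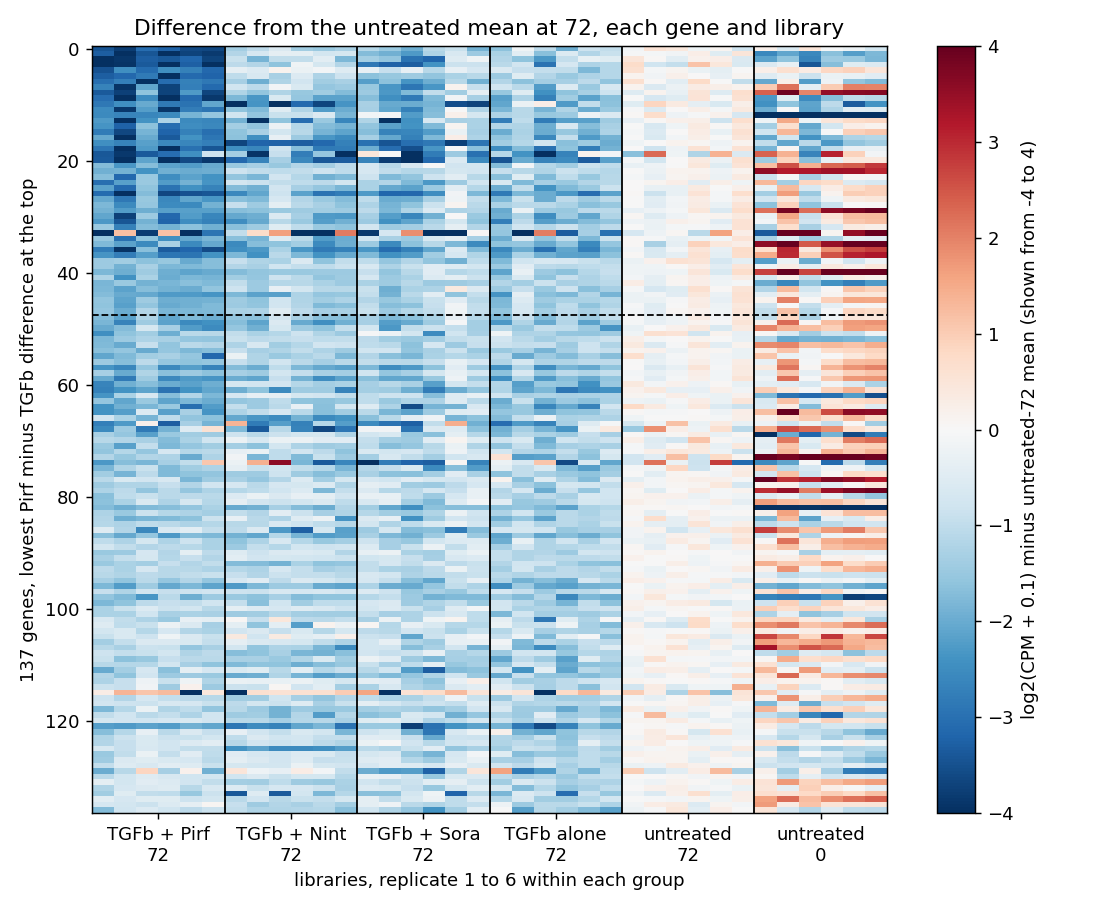
Each row is 1 of the 137 genes, ordered from the lowest Pirf minus TGFb difference at the top, and each column is a library, by group; the colour is log2(CPM + 0.1) minus the gene's untreated mean at 72. The 48 genes above the dashed line are those with a Pirf difference below -0.5, and they are darker blue with Pirf than with TGFb alone, whereas the time-0 columns hold both red and blue rows.

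The 48 members with a Pirf difference below -0.5 averaged 2.12 ± 0.28 log2 CPM with Pirf, 3.21 ± 0.32 with Nint, 3.25 ± 0.42 with Sora, 3.29 ± 0.24 with TGFb alone and 4.81 ± 0.21 in untreated slices at 72 (SD over libraries, n = 6 each). The other 89 averaged 2.7 ± 0.14, 2.81 ± 0.13, 2.87 ± 0.24, 2.68 ± 0.16 and 4 ± 0.04 in the same order. The nearness of Pirf and Sora to TGFb alone in the 89 follows from how they were chosen.

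ENSRNOG00000029768 had the lowest Pirf difference, -2.79, among members above 3 log2 CPM. It stood at 3.56 to 6.97 CPM with Pirf (median 4.93), at 21.6 to 51.6 CPM with TGFb alone (median 33.6) and at 48.8 to 95.3 CPM in untreated slices at 72 (median 66). All 6 Pirf libraries lay below the time-0 libraries, which ranged from 11.3 to 21.6 CPM. With Nint it ranged from 30.2 to 53.2 CPM and with Sora from 14.2 to 44.2 CPM, so both overlapped TGFb alone. Its TGFb difference of -1.002 is the closest to the threshold.

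ENSRNOG00000015677 followed with a Pirf difference of -2.68. It ranged from 0.287 to 0.801 CPM with Pirf and from 1.56 to 6.52 CPM with TGFb alone, so these groups did not overlap. Untreated slices ranged from 5.4 to 11.3 CPM at 72 and from 1.17 to 2.89 CPM at 0. With Sora its libraries were spread from 0.803 to 7.17 CPM.

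With Sora, the lowest difference among members above 3 log2 CPM was the -1.81 of ENSRNOG00000054945. Its libraries ranged from 0.847 to 31.2 CPM with Sora (median 3.62), from 2.31 to 63.1 CPM with TGFb alone (median 18.7) and from 3.32 to 200.7 CPM in untreated slices at 72 (median 20.9). These groups overlapped widely, and the untreated median barely exceeded that with TGFb alone. The next lowest, ENSRNOG00000007475, did separate: it had 2.33 to 4.35 CPM with Sora (median 3.93), against 7.98 to 18.9 CPM with TGFb alone (median 12).

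**Figure D3:**
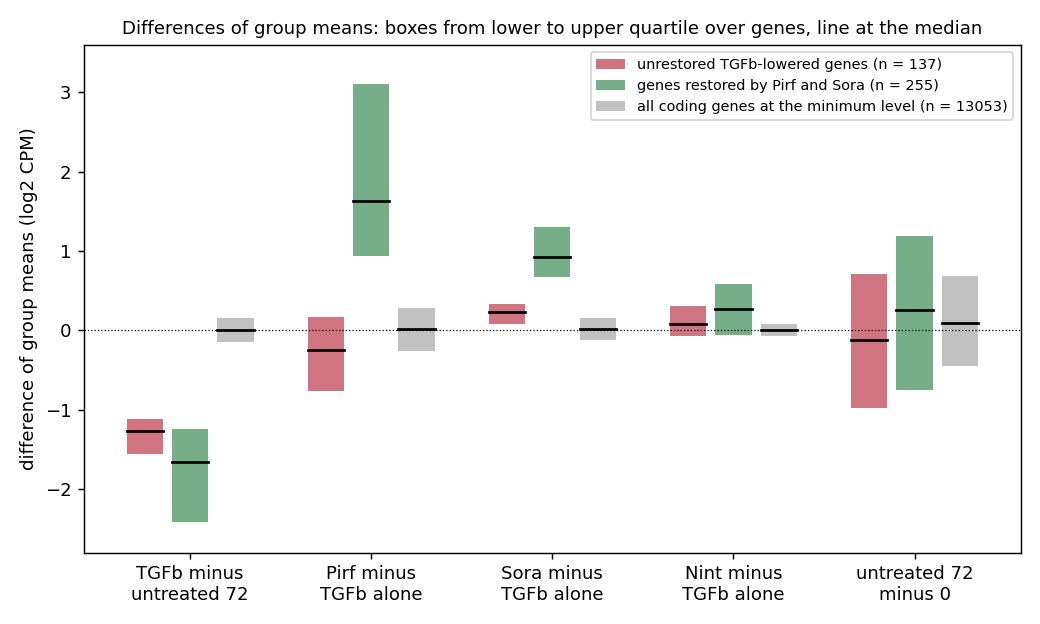
Differences of group means in log2 CPM (y axis) for 5 comparisons (x axis); boxes run from the lower to the upper quartile over genes, with a line at the median, for the 137 members, the 255 genes raised by both Pirf and Sora, and all 13053 coding genes at the minimum level. The TGFb, Pirf and Sora boxes are set by the choice of genes. The Nint medians are 0.08 for the members, 0.27 for the 255 and 0.01 for all genes. The choice also acts on the Nint boxes of the members and the 255, through the shared TGFb-alone libraries.

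Nint was not part of the choice, so its libraries give a reading of the same genes with another drug. The comparison with TGFb alone shares the TGFb-alone libraries with the criteria, which act on it in both directions. The TGFb criterion favours low values there and so higher values with Nint. The Pirf and Sora limits, taken from the same libraries, favour the opposite, and the net direction was not tested. With Nint, edgeR's quasi-likelihood test with Benjamini-Hochberg adjustment over 15644 genes called 1 member higher (0.73%) and 4 lower (2.92%). Of all genes tested, 3.09% were called, 0.882% higher and 2.21% lower, so the members' shares were near the background. In at least 1 direction that background itself moved by over 1.5 times without TGFb-alone replicate 2 or 3 or Nint replicate 2 or 4, with 78 to 126 genes higher and 173 to 277 lower. The median log2 fold change was 0.07 over members and -0.02 over all genes. At an unadjusted p under 0.05 there were 12 members higher and 7 lower, against 777 higher and 1303 lower of the 15644 genes tested. The criteria act on the members' counts in both directions, and nothing is read from them. All 6 Nint libraries lay below all 6 with TGFb alone for 4 members (1.78% of all coding genes at the minimum level) and above them for 2 (1.47%).

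ENSRNOG00000007475 fell with Nint to 2.44 to 4.81 CPM (median 3.37), against 7.98 to 18.9 CPM (median 12) with TGFb alone, without overlap. The log2 fold change was -1.87 (SE 0.2, edgeR adjusted p = 4.15e-07). It had 4.74 to 7.11 CPM with Pirf and 27.9 to 35.8 CPM in untreated slices at 72, and all drug libraries lay below all 6 with TGFb alone. The TGFb-alone libraries overlapped those at time 0, which ranged from 6.4 to 16.3 CPM.

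ENSRNOG00000017672 fell to 7.93 to 10.6 CPM with Nint (median 8.75), against 17.8 to 25.5 CPM with TGFb alone (median 20.5), again without overlap. The log2 fold change was -1.22 (SE 0.16, edgeR adjusted p = 9.46e-06). With the other drugs it overlapped TGFb alone, at 23.8 to 30.1 CPM with Pirf and 15.7 to 34.2 CPM with Sora. Untreated slices ranged from 34.5 to 60.2 CPM at 72 and from 14.6 to 25.7 CPM at 0.

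The other 2 members called lower with Nint had log2 fold changes of -2.83 (SE 0.59, edgeR adjusted p = 0.00446) and -1.37 (SE 0.29, edgeR adjusted p = 0.00499), at medians of 0.124 and 0.464 CPM with Nint and 0.852 and 1.14 CPM with TGFb alone. The 1 member called higher, named after its values were seen, was ENSRNOG00000043203. It had 1.5 to 2.45 CPM with Nint (median 1.76), against 0.571 to 1.44 CPM with TGFb alone (median 1.07), a log2 fold change of 0.82 (SE 0.21, edgeR adjusted p = 0.0244). With Pirf it had 0.108 to 0.32 CPM, below all Nint and TGFb-alone libraries. Its call was lost without Nint replicate 3 (adjusted p = 0.0771), Nint replicate 5 (0.0578) or TGFb-alone replicate 5 (0.0771), against a fold of 1.2 (0.159), and with the column number in the sample code as a factor (0.189).

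**Figure D4:**
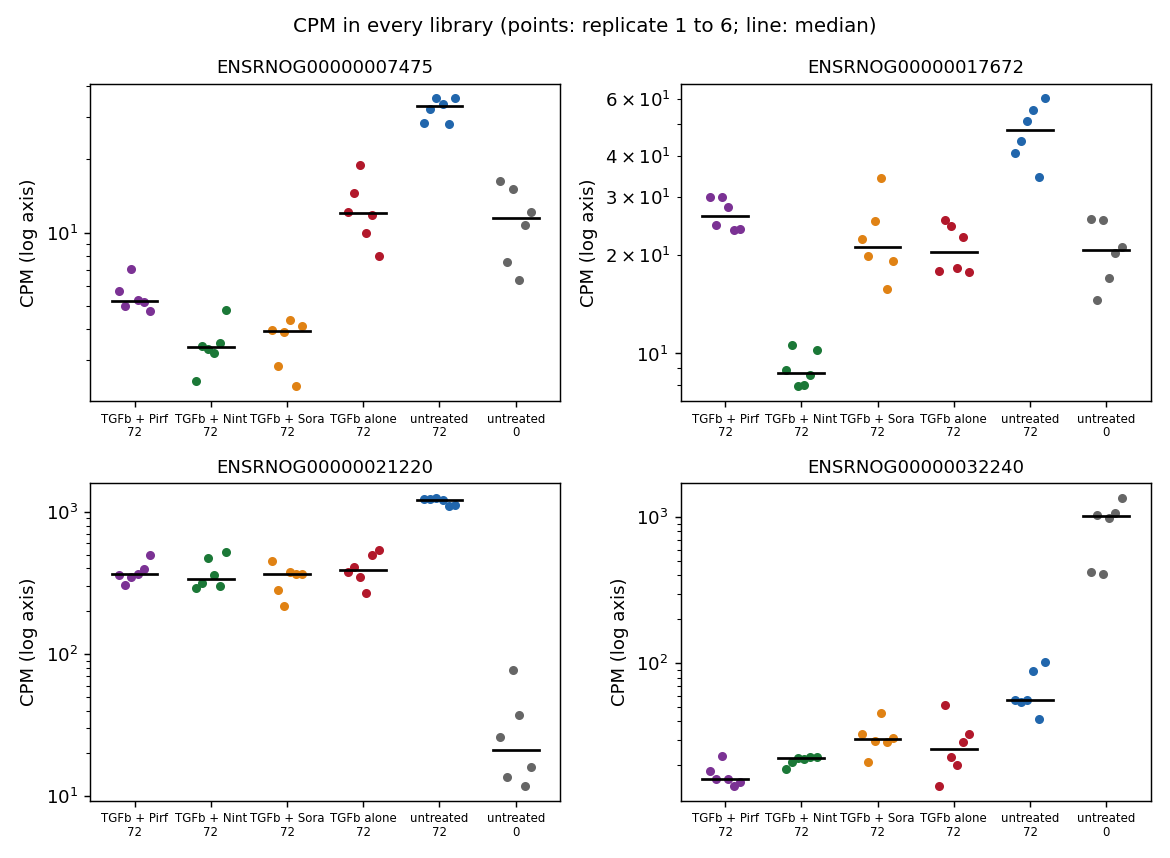
CPM on a log axis (y axis) of 4 members in every library, by group (x axis), with a line at the median. ENSRNOG00000007475 is low with all 3 drugs, ENSRNOG00000017672 is low with Nint, ENSRNOG00000021220 stands at about one level in all treated groups and far higher in untreated slices at 72, and ENSRNOG00000032240 is highest at time 0.

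The Nint values of the other TGFb-lowered genes are given as a description. With Nint, 8 of the 255 genes raised by both Pirf and Sora were called higher and 0 lower by edgeR (4 were lower at an unadjusted p under 0.05), and 18 of the 104 raised by Sora alone were called higher (17.3%) and 0 lower. Of the 92 raised by Pirf alone, 0 were called higher and 2 lower. The median log2 fold change with Nint was 0.39 over the 104, 0.14 over the 92, 0.07 over the 255 and 0.07 over the 137. As differences of mean log2 CPM the medians were 0.46, 0.29, 0.27 and 0.08 in the same order, so whether the 255 lay above the 137 depended on the measure. All these values share the TGFb-alone libraries, and the sets were split by Pirf and Sora differences from those libraries. A rise of 0.5 or more favours low TGFb-alone values and so higher values with Nint. A rise under 0.5 favours the opposite. The differences between the sets were not tested, and nothing is read from their order.

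Against untreated slices at 72, members were low with Nint. edgeR called 119 of the 137 lower (86.9%) and 0 higher (0 at an unadjusted p under 0.05, and 0 with DESeq2), where 26.4% of all genes tested were called, 13.9% lower and 12.6% higher. Of the other TGFb-lowered genes, 60.8% of the 255 raised by both Pirf and Sora were called lower. The shares were 77.2% of the 92 raised by Pirf alone and 84.6% of the 104 raised by Sora alone. The untreated libraries are shared with the criteria of all these sets, and a choice of genes that were high there favours lower values with Nint. The median log2 fold change was -1.23, and 94 members had all 6 Nint libraries below all 6 untreated ones, as had 9.32% of all coding genes at the minimum level, and 0 had them all above (8.43%). With the same measure, 118 members stood below the untreated range with Pirf and 63 with Sora (19.5% and 4.42% of all coding genes). The criteria place the Pirf and Sora means at least 0.5 below the untreated mean, so nothing is read from these 2 counts.

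The member furthest below untreated with Nint was ENSRNOG00000007475, with a log2 fold change of -3.23 (SE 0.21, edgeR adjusted p = 6.02e-13). ENSRNOG00000001955 followed, with 0.455 to 5.8 CPM with Nint (median 2.62) and 3.4 to 52.8 CPM in untreated slices at 72 (median 8.51). Its log2 fold change was -2.69 (SE 0.87, edgeR adjusted p = 0.0205), and the groups overlapped. Without untreated replicate 2, its highest untreated library, the adjusted p was 0.0962 and the log2 fold change -1.98, and with the code's column number as a factor they were 0.196 and -2.10. Of the 18 members not called, ENSRNOG00000055156, at 0 to 8.35 CPM with Nint, had a log2 fold change of 0.38 (SE 1.23, edgeR adjusted p = 0.863).

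**Figure D5:**
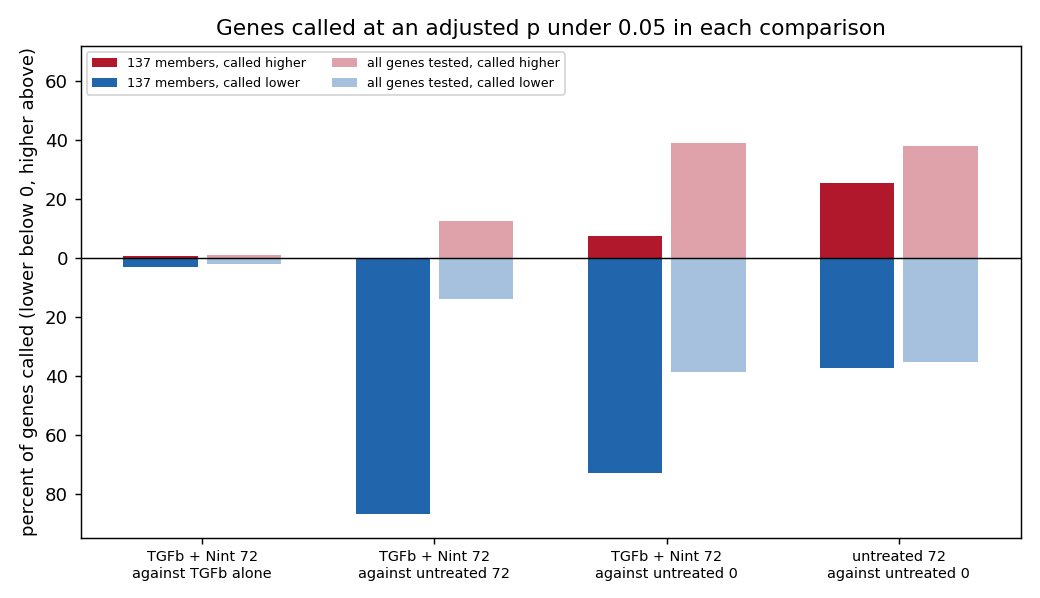
Percentage of genes called higher (above 0) or lower (below 0) by edgeR at an adjusted p under 0.05 (y axis) in 4 comparisons (x axis), for the 137 members in full colour and for all 15644 genes tested in pale colour. In the comparison of Nint with TGFb alone the bars of both sets are short, and against untreated slices at 72 the members' bar reaches 86.9% lower.

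The comparison of Nint-treated slices with time 0 uses no library of the TGFb, Pirf and Sora differences, but the minimum level was taken over all 6 groups and so uses both. A group mean of 1 log2 CPM was reached at both times by 114 members, only at time 0 by 13, and only at 72 by 10. edgeR called 100 members lower (73%) and 10 higher (7.3%), where 77.7% of all genes tested were called, 38.6% lower and 39.1% higher. Of the other TGFb-lowered genes, 76.5% of the 255 raised by both Pirf and Sora were called lower. The shares were 83.7% of the 92 raised by Pirf alone and 64.4% of the 104 raised by Sora alone. A large share called lower than at time 0 was thus not particular to the members. The 100 include all 13 members that reached the level only at time 0, for which a high value there was the condition of entry. Among the 114, 84 were called lower (73.7%) and 7 higher (6.14%). All 6 Nint libraries lay below all 6 at time 0 for 64 members (27.2% of all coding genes at the minimum level) and above them for 8 (34.3%). The median log2 fold change was -1.43 over members and 0 over all genes. This comparison takes in the time in culture as well as TGFb and Nint, and these cannot be told apart in it.

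ENSRNOG00000018899 had the lowest log2 fold change among the members open to naming, -5.61, at 0.236 to 1 CPM with Nint (median 0.426) and 16.7 to 38.5 CPM at time 0 (median 22.9). It reached the levels for entry and for naming only at time 0, so this value is a description. ENSRNOG00000032240, above both levels at both times, had 18.8 to 22.8 CPM with Nint (median 22.3) and 411 to 1359 CPM at time 0 (median 1015), a log2 fold change of -5.34 (SE 0.31, edgeR adjusted p = 1.65e-16). Its 6 Nint libraries lay within the range of those with TGFb alone, 14.5 to 51.5 CPM. In the other direction, ENSRNOG00000021220, also above both levels at both times, had a log2 fold change of 3.64 (SE 0.31, edgeR adjusted p = 1.97e-12). ENSRNOG00000007509 reached the levels only at 72, and its log2 fold change of 5.58, which was 6.97 without time-0 replicate 3, is a description.

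The 137 genes had different histories in culture before TGFb is considered. In untreated slices at 72 against 0, edgeR called 51 members lower (37.2%) and 35 higher (25.5%), and 51 were not called. Of all genes tested, 73.2% were called, 35.3% lower and 38.0% higher. The 72 and 0 libraries did not overlap in 23 members that were lower at 72 (23.5% of all coding genes at the minimum level) and in 25 that were higher (30.6%). The untreated libraries at 72 are shared with the criteria, and a choice of genes that were high there favours higher values at 72. The minimum level acts in both directions: 12 of the 51 lower members reached it only at time 0, and 5 of the 35 higher members only at 72. Among the 114 that reached it at both times, 39 were lower (34.2%) and 30 higher (26.3%).

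The 51 members lower at 72 than at 0 lay lower still with TGFb, as the criteria require. They averaged 2.35 ± 0.12 log2 CPM with Pirf, 2.64 ± 0.19 with Nint, 2.81 ± 0.17 with Sora, 2.63 ± 0.11 with TGFb alone, 3.99 ± 0.13 in untreated slices at 72 and 5.58 ± 0.41 at time 0 (SD over libraries, n = 6 each). Their TGFb-alone means lay 1.32 to 6.91 log2 units below time 0, which follows from the culture call and the TGFb criterion. ENSRNOG00000018899 had 0.571 to 2.68 CPM in untreated slices at 72, against 16.7 to 38.5 CPM at time 0, the level that admitted it. It stood at 0.161 to 1.71 CPM with TGFb alone, which overlapped the untreated range. ENSRNOG00000055156 was also admitted through time 0 alone, where its libraries ranged from 0.0945 to 85.6 CPM and overlapped those at 72.

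The 35 members higher at 72 than at 0 averaged 3.06 ± 0.13 log2 CPM with Pirf, 3.63 ± 0.19 with Nint, 3.58 ± 0.26 with Sora, 3.64 ± 0.1 with TGFb alone, 4.94 ± 0.07 in untreated slices at 72 and 3.16 ± 0.12 at time 0. All 6 libraries with TGFb alone, at 3.47 or more, lay above all 6 at time 0, at 3.39 or less. The 35 were picked as higher at 72 than in these same time-0 libraries, which favours a low average there. Nothing is therefore read from that order. Single members were spread to both sides: their difference between TGFb alone and time 0 had a median of -0.06 and ranged from -1.14 to 7.04. It was below 0 in 19 of the 35. Of the 8 members with a Sora difference below -0.5, 7 were among these 35. The Sora difference and the untreated libraries at 72 both entered the criteria. No share of all coding genes stands beside this count, and nothing is read from it.

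ENSRNOG00000021220 is the most abundant example of this kind named by the rule. It had 1098 to 1255 CPM in untreated slices at 72 (median 1216), against 11.8 to 76.8 CPM at time 0 (median 21.1), a log2 fold change of 5.30 (SE 0.34, edgeR adjusted p = 1.63e-15). It stood at 304 to 496 CPM with Pirf, 293 to 526 CPM with Nint, 218 to 453 CPM with Sora and 267 to 537 CPM with TGFb alone. All 24 libraries with TGFb lay below the untreated range at 72 and above that at time 0. ENSRNOG00000007509, admitted through its level at 72 alone, had 7.66 to 20.3 CPM in untreated slices at 72 and 0 to 0.554 CPM at time 0. Its log2 fold change was 6.68, and 8.07 without time-0 replicate 3, the highest library there. With Pirf it had 1.91 to 4.17 CPM, below all 6 libraries with TGFb alone, at 4.21 to 10.6 CPM.

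The 51 members without a culture call averaged 2.26 ± 0.31 log2 CPM with Pirf, 2.79 ± 0.24 with Nint, 2.8 ± 0.44 with Sora, 2.64 ± 0.27 with TGFb alone, 4.12 ± 0.11 in untreated slices at 72 and 4.01 ± 0.35 at time 0. The Pirf difference lay below -0.5 in 22 of these 51, in 14 of the 35 higher at 72 and in 12 of the 51 lower at 72. That difference was used to choose the members, and nothing is read from this split. Over all 137 members, 120 had a TGFb-alone mean below that at time 0, of which 87 lay at least 1 log2 unit below, and 8 lay at least 1 unit above. Of all coding genes at the minimum level, 47.1% lay below time 0 with TGFb alone, 14.4% by at least 1 unit, and 18.6% lay at least 1 unit above. The members were chosen to be low with TGFb alone, so nothing is read from their counts. The highest group was time 0 for 75 members and untreated at 72 for 62, and the lowest was Pirf for 73, TGFb alone for 27, Nint for 21, time 0 for 10 and Sora for 6. The criteria bar TGFb alone, Pirf and Sora from being the highest group. They also drop genes that Pirf or Sora raised by 0.5 or more and keep those lowered. No share of all coding genes stands beside these counts, and nothing is read from them.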

How the data were processed

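Per the labels' protocols, total RNA was depleted of ribosomal RNA and sequenced as stranded libraries. The tools RSEM and edgeR and the build Rnor_6.0 are named, per the submitters' processing notes. Aligner and annotation release: not given in the sources used here. Deposited by the authors were expected counts per gene (32883 IDs, 8.59% of values not whole) and log2 CPM for 14984 genes. The log2 CPM values matched those of edgeR (TMM, prior count 0.25) with a largest difference of 4.97e-14. RSEM can share reads among near-identical genes, so counts of such genes are uncertain.

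Members were found from the deposited log2 CPM. They and all lists were chosen with earlier results of these data known. Expected counts were rounded and tested in R 4.3.3 with edgeR 4.0.16 (filterByExpr, TMM, one quasi-likelihood fit of 36 libraries with a mean per group, 15644 genes, Benjamini-Hochberg adjustment, call at an adjusted p under 0.05). SE was taken from the fold change and F, as |log2 fold change|/sqrt(F). The method was tested on simulated data. CPM values in the text are TMM-scaled without a prior count. Alternatives included DESeq2 1.42.0, other scaling, no filter, a factor for the number after the letter near the end of each sample's description code (called the column number here; the labels do not say what it is), and leaving out libraries.

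IDs were named by rule among members with a highest group mean of at least 3 log2 CPM: the lowest TGFb, Pirf and Sora differences, and the extreme log2 fold changes among called members of each comparison. To keep unnamed IDs few, no comparison gives over 2 that rose and 2 that fell. Lists of genes by name, marker checks and promoter sequences were not used, since IDs were not paired with names here.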

Additional observations from a re-analysis of the deposited data

Results flagged for a closer look

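Dixon's criterion was applied to 84 groups of 6 values, from the named IDs except ENSRNOG00000043203 in CPM and from the mean over members. In 15 of these groups 1 library lay far from the other 5, where chance gives about 5%. That rate holds for independent, normally distributed values. The IDs were taken in CPM and named for extreme differences, and ENSRNOG00000049394 was named after its values were seen. Nothing is therefore read from the excess. ENSRNOG00000054945 stood out high in 4 groups: 61.5 CPM in Pirf replicate 6 (next 14.8), 352 CPM in Nint replicate 3 (next 78.5), 31.2 CPM in Sora replicate 5 (next 4.49) and 63.1 CPM in TGFb-alone replicate 3 (next 24.7). ENSRNOG00000001963 stood out high in 3 groups: 72.9 CPM in Pirf replicate 3 (next 30.9), 126.9 CPM in Nint replicate 3 (next 53) and 215.6 CPM in Sora replicate 5 (next 53.9). ENSRNOG00000055156 stood out high at 7.14 CPM in Sora replicate 3 (next 1.97), 8.08 CPM in TGFb-alone replicate 3 (next 0.693) and 5.95 CPM in untreated replicate 5 at 72 (next 2.31). ENSRNOG00000049394 was at 0 CPM in Nint replicate 1 (next 12.5) and at 17.7 CPM in time-0 replicate 1 (next 8.19). The remaining 3 were ENSRNOG00000001955 at 6.22 CPM in Pirf replicate 6 (next 1.92), ENSRNOG00000018899 at 1.71 CPM in TGFb-alone replicate 1 (next 0.644) and ENSRNOG00000007509 at 0.554 CPM in time-0 replicate 3 (next 0.132).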

How the results depend on the processing

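The number of members, 137, was 62 with Pirf and Sora differences required to be under 0.25 and 73 with a TGFb threshold stricter by 0.25, and it lay between 124 and 146 when 1 library was left out. By group medians 118 genes met the criteria, 102 of them members. The 1 member called higher with Nint against TGFb alone became 0 with the code column as a factor or against a fold of 1.2, 3 with DESeq2 and 7 when the model held just the 12 Nint and TGFb-alone libraries, with 0 to 2 when 1 library was left out; its share was 0% among the 71 members that met the criteria without each library, an alternative chosen after seeing the data. The cause of these shifts was not tested. The members' other counts of calls stayed within 1.5 times. Over all genes, the 138 higher and 345 lower with Nint against TGFb alone became 76 and 186 with the code factor, 16 and 83 against a fold of 1.2, 298 and 330 with the 12 libraries, and 257 and 428 with DESeq2. They became 80 and 229 without TGFb-alone replicate 2, 126 and 173 without replicate 3, 80 and 277 without Nint replicate 2, and 78 and 251 without replicate 4. Against untreated slices at 72 a fold of 1.2 gave 687 and 1075. The log2 fold change of ENSRNOG00000001955 (Nint against untreated slices at 72) ranged from -3.04 to -1.98 when 1 library was left out, and that of ENSRNOG00000007509 from 5.29 to 6.97 (Nint against time 0) and from 6.39 to 8.07 (72 against 0). Among the 124 members at the minimum level at 72, also chosen after seeing the data, no share of calls moved by over 1.5 times. Among the 71, 97.2% were lower with Nint than in untreated slices at 72. Without scaling factors, all genes split into 1240 higher and 2754 lower in that comparison, against 1969 and 2168, and 122 members were lower. Replicate numbers gave no clear pairing of the samples, but partial pairing is not excluded. For Nint with TGFb alone, correlations of same-numbered deviations ran from -0.29 to 0.63 (median 0.014). Those of other numbers had a median of 0.025 and reached 0.48. For untreated slices at 72 with 0, same-numbered values ran from 0.01 to 0.26 (median 0.095). Other numbers there had a median of -0.029 and reached 0.19. With the replicate number as a block, 1 member was higher and 5 lower with Nint against TGFb alone, 118 were lower against untreated slices at 72, and the call of ENSRNOG00000001955 there was lost (adjusted p = 0.0577). Depth limits the 30 members under 10 counts in some library.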

Other observations

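The criteria were applied to the protein-coding table. Among the 477 genes outside that table whose highest group mean was 1 log2 CPM or more, 25 had a TGFb difference at or below -1, and 6 of these met all the criteria. Of the 6, 5 lay below -0.5 with Pirf. These genes entered no count in the report.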
